A study of Homo sapiens with 27 samples.

Results

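The 10 genes described here encode the human cohesin complex, the proteins that load it, hold it on DNA and release it, and the DNA-binding protein CTCF. They were chosen by name (SMC1A, SMC3, RAD21, STAG1, STAG2, NIPBL, WAPL, PDS5A, PDS5B and CTCF), and every transcript that GENCODE release 44 assigns to one of these symbols was taken from the count tables. All 10 genes had counts, among 18776 genes with a listed transcript. Of their 130 annotated transcripts, 85 were listed in at least 1 library, out of 93530 listed transcripts in all. The counts were made on Ensembl release 98, so transcripts annotated after it could not be listed. The rule uses gene names only, and the genes were picked with earlier results of these data known.

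Cohesin is a ring that holds sister chromatids together from DNA replication to anaphase and that folds interphase chromosomes into loops. SMC1A and SMC3 form the hinged body of the ring, RAD21 is the kleisin that closes it, and either STAG1 or STAG2 binds to RAD21. NIPBL drives loading and loop extrusion, WAPL opens the ring and releases it, PDS5A and PDS5B are scaffold proteins that take part both in release and in protection of acetylated cohesin, and CTCF is a zinc-finger protein at which extruding cohesin is halted. STAG2 is known as one of the genes recurrently mutated in Ewing sarcoma.

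The data were 6 libraries of RM82, an established Ewing sarcoma cell line. Treatment lasted 24 h, either with SGC-CLK-1, an inhibitor of the CLK kinases that phosphorylate SR splicing factors, or with the solvent DMSO. Each label has 3 libraries, and the dose is not given in the sources used here. RNA was reverse transcribed from oligo(dT) primers that carried a unique molecular identifier (UMI), the cDNA was sequenced on the nanopore PromethION platform, and each count is a number of distinct UMIs on a transcript. The study states in general that its experiments were repeated independently, but nothing says of these libraries that they came from separate cultures, so the p-values measure the spread between these libraries, which may be technical.

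Library totals for replicates 1 to 3 were 666702, 362826 and 373004 counts under the SGC-CLK-1 label, against 416352, 523456 and 372876 under the DMSO label. Values are given in this order of replicates throughout. The 10 genes together took 1042, 615 and 663 of these counts under the SGC-CLK-1 label and 573, 848 and 621 under the DMSO label. As CPM, the count scaled to the library total, their sum was 1563, 1695 and 1777 against 1376, 1620 and 1665, so the groups overlapped. A member was counted between 2 times (WAPL) and 260 times (RAD21) in a library, and this limits the precision of each value below.

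Groups are named by their labels throughout. The FRG2 transcript ENST00000645766 had 64, 44 and 60 counts under the SGC-CLK-1 label and 96, 88 and 95 under the DMSO label, and the gene sum had 249 CPM ± 8.18 (SD, n = 3) against 440 CPM ± 135. The study drew this transcript under both treatments in the reverse order. The TLE5 transcript ENST00000221561, drawn beside it, had 11, 8 and 7 counts against 10, 10 and 12, which overlap once scaled to depth. The TLE5 gene sum had 61.7 CPM ± 3.41 (SD, n = 3) against 85.5 ± 24.1, without overlap. Whether the treatments were exchanged in the labels or in that plot cannot be told apart here, so every direction given below is a direction between labels.

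The labelled cell type was checked against marker genes. Of 13 Ewing sarcoma markers, 10 had counts, among them CD99 with 74, 34 and 43 counts against 66, 53 and 65, and BCL11B with 357, 201 and 176 against 172, 234 and 233. FLI1, NKX2-2 and SOX2 were at 0 in all 6 libraries, whereas ERG and EWSR1, genes that can form the fusion of this tumour, were counted in each library. Summed over the list, Ewing markers had 1614, 1585 and 1622 CPM under the SGC-CLK-1 label and 1684, 1433 and 1802 under the DMSO label. The most abundant gene in the mean was BCL11B under the SGC-CLK-1 label (520 CPM, against 479 for CCND1). Under the DMSO label it was CCND1 (621 CPM, against 495 for BCL11B). Of 8 plasma cell markers, 4 had counts and SDC1, IRF4, TNFRSF17 and MZB1 were at 0. CD38 was the most abundant, and the list summed to 82.5, 79.9 and 80.4 CPM against 79.3, 87.9 and 59.0. Blood markers summed to 21.0, 22.0 and 32.2 CPM against 28.8, 13.4 and 18.8, with PTPRC the most abundant and CD3E and HBB at 0, and epithelial markers to 57.0, 33.1 and 32.2 CPM against 48.0, 76.4 and 32.2, with KRT8 the most abundant. These sums overlapped between the labels. Within the Ewing list CCND1 was lower and EWSR1 higher under the SGC-CLK-1 label without overlap, at log2 fold changes of -0.45 and 0.55 that did not pass the test (adjusted p = 0.32 each in edgeR), and GLI1 had 7, 4 and 7 counts against 0 in each library labelled DMSO. Their part in the results below was not tested. The libraries are bulk RNA, in which fewer cells of a type and less RNA per cell cannot be told apart.

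Levels between genes were compared per length, as the CPM of each transcript divided by its length in kilobases (kb) and summed over the gene. Under the DMSO label, RAD21 stood highest with 133 CPM per kb ± 29.6 (SD, n = 3), followed by PDS5B with 60.0 ± 6.92 and SMC3 with 51.4 ± 23.2. STAG2, NIPBL and CTCF lay close together at 33.8, 33.3 and 32.6 CPM per kb, and PDS5A followed with 26.5 ± 7.02. SMC1A and STAG1 had 16.3 and 16.2 CPM per kb, and WAPL was lowest with 4.87 ± 3.42. Only RAD21 was separated from its neighbour in this order, since its lowest library (104 CPM per kb) lay above the highest of PDS5B (66.8). Each other pair of neighbours overlapped in range, and no neighbours were tested. The partners of 1 ring thus had values that differed by several fold on this scale, with RAD21 above SMC3 and SMC3 above SMC1A in the mean of either label. Without the division by length, SMC3 had 146 CPM and SMC1A 156 CPM in the mean under the SGC-CLK-1 label. A few counts on a short transcript weigh heavily here, such as the 9 on SMC3-202 (777 bases) in DMSO replicate 3, where SMC3 reached 78.2 CPM per kb. A read counted on several isoforms of a gene, as described below, would enter this scale more than once. Since an identifier counts once on a transcript of any length, the order depends on the division by length. As CPM without it, the means under the DMSO label were 424 for RAD21, 255 for PDS5B, 216 for NIPBL, 213 for SMC3, 122 for SMC1A, 102 for CTCF, 86.9 for STAG2, 70.4 for PDS5A, 46.5 for STAG1 and 18.3 for WAPL, which puts STAG2 below NIPBL, CTCF and SMC1A.

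**Figure D1:**
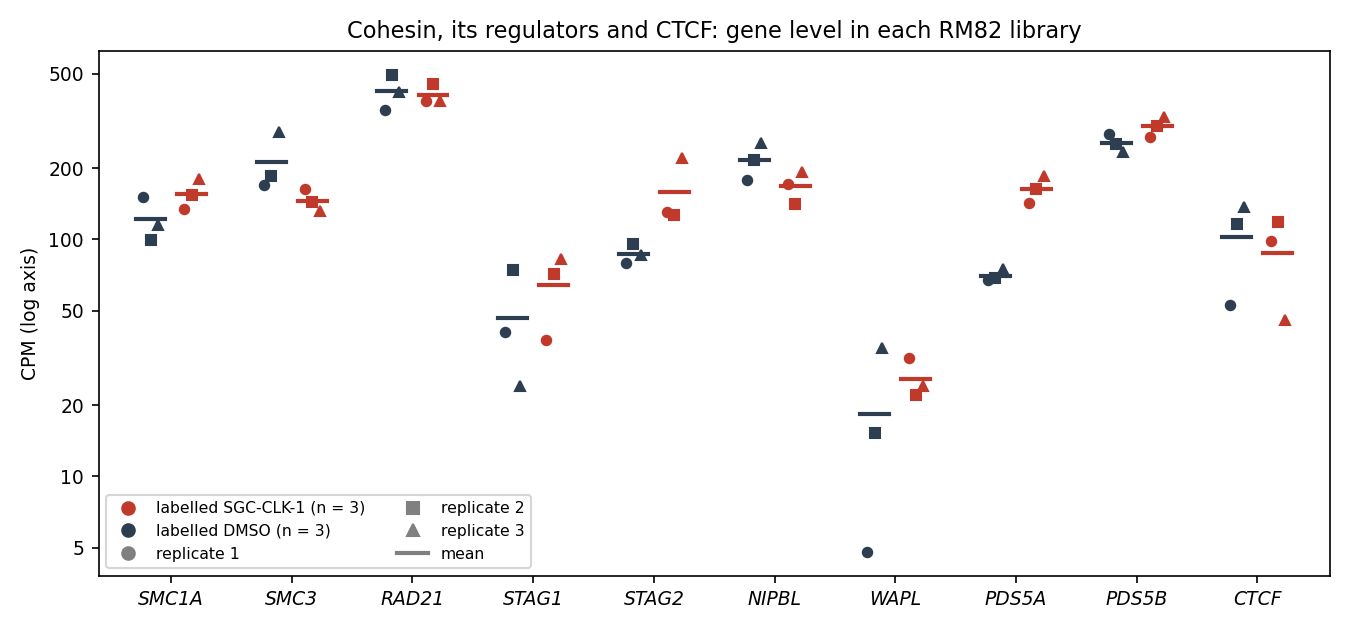
Level of the 10 genes in each library, as CPM of the gene sum on a log axis. Points are libraries, with the symbol giving the replicate and the colour the label, and horizontal lines are means of 3 libraries. PDS5A, with 142 to 185 CPM under the SGC-CLK-1 label and 67.3 to 75.1 under the DMSO label, shows the widest gap between the groups, and STAG2 and SMC3 are the other genes whose groups do not overlap.

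The first comparison asked whether the level of any of these genes differed between cells with the CLK inhibitor label and those with the solvent label. PDS5A, one of the pair of PDS5 scaffolds, had the largest estimated difference. STAG2 was estimated higher and SMC3 lower under the SGC-CLK-1 label, and RAD21, SMC1A, PDS5B, STAG1, NIPBL and CTCF had estimates between -0.44 and 0.32 on the log2 scale. None of the 9 genes that could be tested passed an adjusted p of 0.05 (edgeR's quasi-likelihood test on gene sums, Benjamini-Hochberg adjustment over 6344 genes). In the same test, 0.236% of all genes passed, 7 higher and 8 lower, or 20 higher and 8 lower when libraries were scaled by their totals alone. At an unadjusted p under 0.05 there were 2 members higher and 1 lower, where 13.9% of all genes lay under that value (6.89% higher and 6.97% lower), and DESeq2 called 1 member, PDS5A, and 1.77% of all genes. The groups did not overlap for 3 of 9 members, both as CPM and after the TMM scaling of the test, against 19.7% of all genes (10.0% higher and 9.71% lower, after TMM scaling). The median log2 fold change was 0.16 over the 9 members and -0.0012 over all genes tested.

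PDS5A was counted 95, 59 and 69 times under the SGC-CLK-1 label and 28, 36 and 28 times under the DMSO label. That is 142, 163 and 185 CPM against 67.3, 68.8 and 75.1 CPM, so the lowest library of the first group lay well above the highest of the second group. Its log2 fold change was 1.13 (SE 0.26, 95% interval 0.58 to 1.68), with an adjusted p of 0.064 in edgeR. The estimate stayed between 1.02 and 1.34 in 14 alternative fits, of which 4 gave an adjusted p under 0.05: no filter on low counts (0.028), at least 10 counts in every library (0.036), DESeq2 (0.024) and only the most abundant transcript of each gene (0.016). Leaving out 1 library at a time gave adjusted p between 0.11 and 0.24.

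PDS5B, its paralog, had 180, 109 and 123 counts under the SGC-CLK-1 label and 116, 132 and 87 under the DMSO label. Its log2 fold change was 0.16 (SE 0.20, adjusted p = 0.79 in edgeR), with a 95% interval from -0.27 to 0.59, and it became 0.073 without SGC-CLK-1 replicate 3. It was 0.35 with protein-coding transcripts only and 0.41 with the most abundant transcript only (adjusted p = 0.54 and 0.33 in edgeR). The log2 ratio of PDS5B to PDS5A counts was 0.92, 0.88 and 0.83 under the SGC-CLK-1 label and 2.03, 1.86 and 1.62 under the DMSO label, and so did not overlap. Its mean was 0.88 ± 0.045 (SD, n = 3) against 1.84 ± 0.21, a difference of -0.96 (exact two-sided permutation test, p = 0.1, the smallest p that 3 libraries against 3 allow, and 0.3 after adjustment over 3 ratios).

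Of the ring itself, SMC3 was counted 109, 52 and 49 times under the SGC-CLK-1 label and 71, 97 and 106 times under the DMSO label. Scaled to depth these were 163, 143 and 131 CPM against 171, 185 and 284 CPM, with every library of the first group below every one of the second, though by only a small step between the nearest libraries. The log2 fold change was -0.61 (SE 0.26, unadjusted p = 0.033, adjusted p = 0.31 in edgeR), and -0.33 without DMSO replicate 3. SMC1A (most counted transcript SMC1A-201, chrX:53374149-53422654, minus strand), its partner in the heterodimer, had 90, 56 and 67 counts against 63, 52 and 43, and RAD21 had 255, 165 and 144 against 147, 260 and 157. Their log2 fold changes were 0.28 (95% interval -0.26 to 0.82) and -0.14 (95% interval -0.57 to 0.30), and both groups of libraries overlapped. With 1 library left out, they ran from 0.14 to 0.43 for SMC1A and from -0.28 to -0.011 for RAD21.

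STAG2 (most counted transcript STAG2-201, chrX:123960519-124101498, plus strand), the more abundant of the STAG subunits here, was counted 87, 46 and 82 times under the SGC-CLK-1 label and 33, 50 and 32 times under the DMSO label. The levels were 130, 127 and 220 CPM against 79.3, 95.5 and 85.8 CPM, and replicate 3 of the first group was the highest of all 6. The log2 fold change was 0.78 (SE 0.28, unadjusted p = 0.015, adjusted p = 0.22 in edgeR), and 0.48 without SGC-CLK-1 replicate 3. STAG1 had 25, 26 and 31 counts against 17, 39 and 9, which overlapped, with a log2 fold change of 0.32 (95% interval -0.60 to 1.24), which became 0.034 without DMSO replicate 3 and 0.85 without DMSO replicate 2. The log2 ratio of STAG2 to STAG1 was 1.33 ± 0.49 (SD, n = 3) under the SGC-CLK-1 label and 1.02 ± 0.71 under the DMSO label (exact two-sided permutation test, p = 0.6).

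NIPBL (most counted transcript NIPBL-201, chr5:36876769-37066413, plus strand), the loader, had 114, 51 and 72 counts under the SGC-CLK-1 label and 74, 113 and 95 under the DMSO label, for a log2 fold change of -0.44 (95% interval -0.95 to 0.074, adjusted p = 0.45 in edgeR) that became -0.29 without DMSO replicate 3. WAPL (most counted transcript WAPL-201, chr10:86435256-86521792, minus strand), the release factor, was too rare for the filter of the test, with 21, 8 and 9 counts against 2, 8 and 13. Its 25.9 CPM ± 4.97 (SD, n = 3) and 18.3 CPM ± 15.3 overlapped (exact two-sided permutation test, p = 0.5). The log2 ratio of WAPL to NIPBL was -2.65 ± 0.26 (SD, n = 3) under the SGC-CLK-1 label and -3.82 ± 1.04 under the DMSO label (exact two-sided permutation test, p = 0.2). DMSO replicate 1, with 2 WAPL counts, had the lowest ratio of the 6. The difference in means of 1.17 became 0.63 without that library and 1.67 without DMSO replicate 3. CTCF, whose most counted transcript CTCF-205 spans chr16:67570773-67639162 on the plus strand, was counted 66, 43 and 17 times against 22, 61 and 51 times, and its log2 fold change of -0.29 had a 95% interval from -1.12 to 0.54 and became -0.0090 without SGC-CLK-1 replicate 3 and -0.62 without DMSO replicate 1. The intervals of CTCF and STAG1 hold changes in either direction, so neither the size nor the direction of a change was determined.

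**Figure D2:**
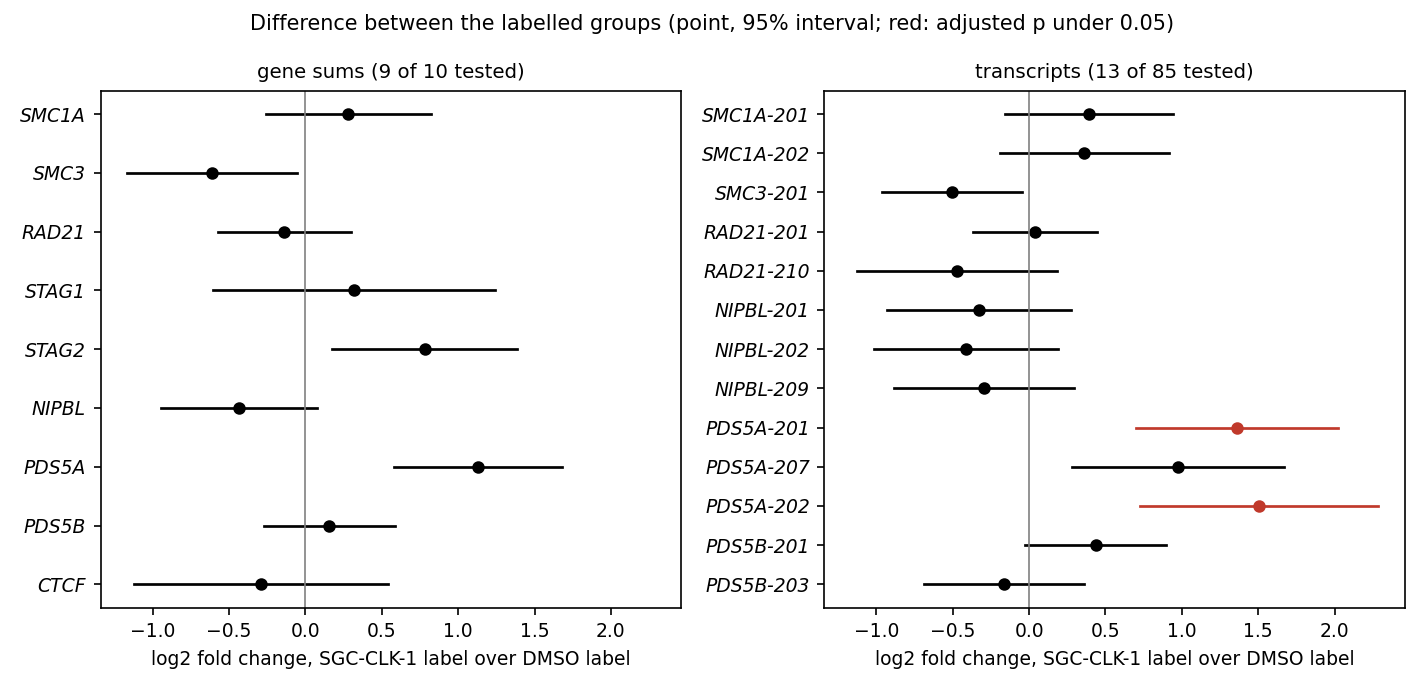
Log2 fold change of the SGC-CLK-1 label over the DMSO label for the 9 tested gene sums and the 13 tested transcripts. Points are estimates with approximate 95% intervals computed from the edgeR test, with red for an adjusted p under 0.05. PDS5A-201 at 1.36 and PDS5A-202 at 1.50 are the red points, and the PDS5A gene sum lies at 1.13.

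Long reads can tell isoforms apart, and the second comparison was made on single transcripts. Of the 85 listed member transcripts, 13 from 6 genes had enough counts for the test (15.3%, against 8.38% of all listed transcripts), and 24 had 5 or fewer counts in all libraries together. The tested member transcripts had a median length of 7131 bases, against 3054 for all tested transcripts. Protein-coding isoforms took 80.0% of the members' counts, retained-intron isoforms 10.2%, isoforms annotated as targets of nonsense-mediated decay 6.03%, and isoforms without a defined coding sequence 3.85%. Of the 13 tested, 2 passed an adjusted p of 0.05 (edgeR's quasi-likelihood test on transcripts, Benjamini-Hochberg adjustment over 7840 transcripts), and both were PDS5A transcripts that rose under the SGC-CLK-1 label. Among all transcripts tested, 3.95% passed, 1.85% higher and 2.10% lower. At an unadjusted p under 0.05 there were 3 member transcripts higher and 1 lower, where 8.93% of all transcripts were higher and 9.11% lower. The groups did not overlap for 3 member transcripts in the higher and 2 in the lower direction, where 22.9% of all transcripts did not overlap (11.7% higher and 11.2% lower). The median log2 fold change was 0.040 over the 13 and -0.0058 over all transcripts tested.

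PDS5A lies on the minus strand of chromosome 4 (GRCh38). PDS5A-201 (ENST00000303538, chr4:39822863-39977911, 33 exons) is the full-length coding isoform. It had 36, 22 and 26 counts under the SGC-CLK-1 label and 8, 14 and 9 under the DMSO label, which is 61.4 CPM ± 7.88 (SD, n = 3) against 23.4 ± 3.82. Its log2 fold change was 1.36 (SE 0.32, adjusted p = 0.016 in edgeR). PDS5A-202 (ENST00000503396, chr4:39898014-39977956, 16 exons) is a shorter isoform, also annotated as coding, whose last exon runs 375 bases into intron 16 of PDS5A-201 and ends there. It had 30, 18 and 13 counts against 4, 10 and 6, or 43.2 CPM ± 7.55 against 14.9 ± 4.85, and a log2 fold change of 1.50 (SE 0.38, adjusted p = 0.023 in edgeR). PDS5A-207 (ENST00000507766, chr4:39837012-39848561, 4 exons), a retained-intron transcript near the 3′ end of the gene, had 26, 18 and 24 counts against 11, 11 and 11. Its log2 fold change of 0.97 (SE 0.34) did not pass the test (adjusted p = 0.11 in edgeR). In all 3 transcripts every library labelled SGC-CLK-1 lay above every library labelled DMSO.

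The isoform ends are shown because they separate PDS5A-201 from PDS5A-202. The first line holds the 5′ splice site of exon 16 (chr4:39898369-39898398, minus strand), at which PDS5A-201 is spliced and which PDS5A-202 reads through, with the first 2 bases of the intron in capitals. The other lines hold 30 bases near the annotated 3′ ends of PDS5A-201 (chr4:39822870-39822899) and PDS5A-202 (chr4:39898023-39898052), with the polyadenylation hexamer AATAAA in capitals.
PDS5A exon 16 splice site: tatttgtgtgGTtagtaaatcatacttcac
PDS5A-201 end: tgcactgtttcaAATAAAaccaagaaatgc
PDS5A-202 end: gaaataatcgtcAATAAAttagtagtagta
The hexamer was searched on the transcript strand in the last 50 bases, and began 25 bases before the end of PDS5A-201 and 27 bases before that of PDS5A-202. Of 86362 listed and annotated transcripts, 34.0% hold it in the same window, and neither it nor ATTAAA was found in that window of PDS5A-207.

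**Figure D3:**
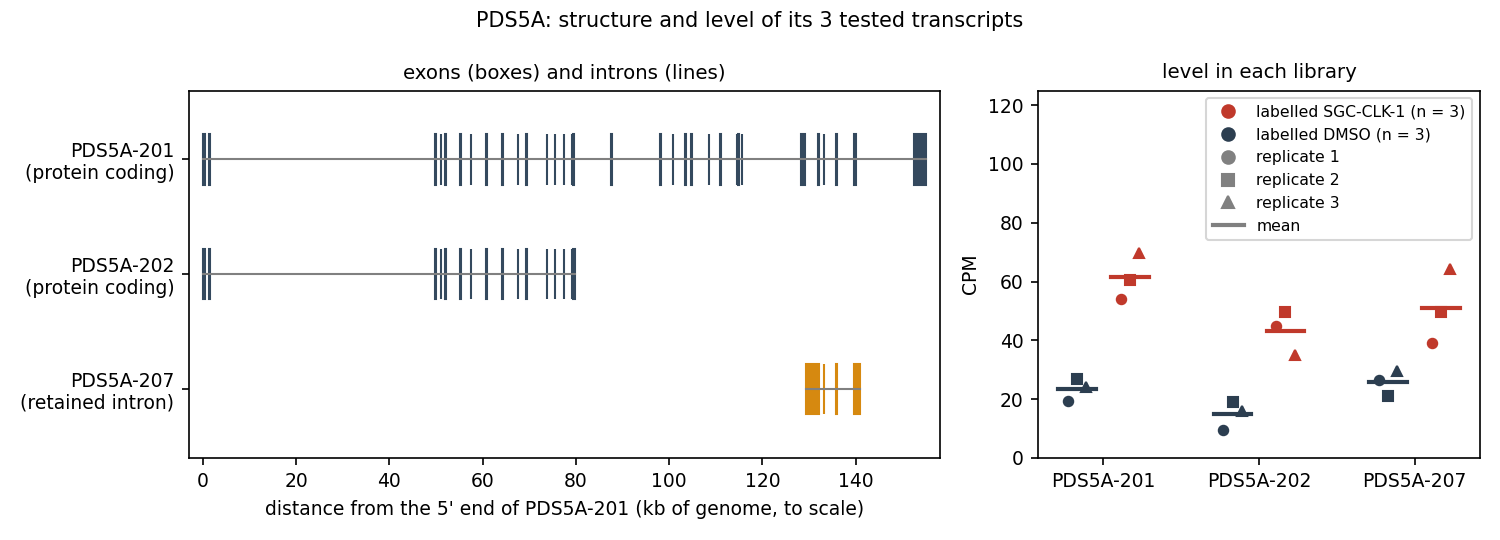
Left, exons (boxes) and introns (lines) of the 3 tested PDS5A transcripts, in kb of genome from the 5′ end of PDS5A-201. Right, their CPM in each library, with means of 3 libraries as horizontal lines. In each of the 3, the libraries labelled SGC-CLK-1 lie above those labelled DMSO, with means of 61.4, 43.2 and 51.0 CPM against 23.4, 14.9 and 25.6 CPM.

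The calls of both PDS5A transcripts depended on the fit. PDS5A-201 was not past 0.05 without SGC-CLK-1 replicate 2 (adjusted p = 0.054), without SGC-CLK-1 replicate 3 (0.058), without DMSO replicate 1 (0.081), with no filter on low counts (0.059) or with DESeq2 (0.079). PDS5A-202 was not past it without SGC-CLK-1 replicate 1 (0.076), SGC-CLK-1 replicate 2 (0.11) or DMSO replicate 1 (0.12), with no filter (0.082) or with DESeq2 (0.13). Their log2 fold changes stayed between 1.25 and 1.49 and between 1.28 and 1.76, respectively, over 11 alternatives each. The transcripts are not independent measurements, because alignments within 0.9 of the best score were kept and 1 read can be counted on several isoforms. PDS5A-201 holds 84.4% of the bases of PDS5A-202 and 15.99% of those of PDS5A-207.

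The share of PDS5A counts on each isoform was then compared. PDS5A-201 took 37.6% ± 0.308 (SD, n = 3) of the gene's counts under the SGC-CLK-1 label and 33.2% ± 5.24 under the DMSO label, PDS5A-202 took 27.0% ± 7.07 against 21.2% ± 6.75, and PDS5A-207 took 30.9% ± 3.72 against 36.4% ± 5.04. In the test of transcript usage (edgeR's diffSpliceDGE, Simes p per gene, Benjamini-Hochberg adjustment over 1805 genes), PDS5A had an unadjusted p of 0.80. None of the 5 members in that test passed an adjusted p of 0.05 (SMC1A, RAD21, NIPBL, PDS5A and PDS5B), with unadjusted p from 0.27 to 0.98 and none under 0.05, where 0.277% of all genes passed and 1.72% had an unadjusted p under 0.05. For these 5 genes no difference in the balance of isoforms was detected. The tested isoforms of SMC1A and NIPBL could not be separated, as described below, so the test says little about their balance.

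PDS5B lies on the plus strand of chromosome 13 and had a pair of tested isoforms. PDS5B-201 (ENST00000315596, chr13:32586452-32778019, 35 exons), the full-length coding isoform, had 103, 74 and 94 counts under the SGC-CLK-1 label and 67, 81 and 49 under the DMSO label. Its log2 fold change was 0.44 (SE 0.23, unadjusted p = 0.063, adjusted p = 0.31 in edgeR), and 0.28 without SGC-CLK-1 replicate 3. PDS5B-203 (ENST00000450460), annotated as a target of nonsense-mediated decay, had 53, 26 and 21 counts against 37, 40 and 27, a log2 fold change of -0.17 (SE 0.26). It took 23.5% ± 6.20 (SD, n = 3) of the gene's counts under the SGC-CLK-1 label and 31.1% ± 0.798 under the DMSO label. PDS5B-203 has 34 exons and shares 68.6% of the bases of PDS5B-201. Among the places where the isoforms differ are alternative 5′ splice sites, at chr13:32770752-32770781 and chr13:32770869-32770898. They are printed as 10 bases of exon and 20 of intron, with the first 2 intron bases in capitals.
PDS5B-201 splice site: aaaaaaatgtGTaagttgtaaatattacat
PDS5B-203 splice site: attacactagGTaagataaaatttttataa
Both introns open with GT, and the gene's usage p was 0.27.

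RAD21 counts were concentrated on RAD21-201, which held 79.9% of them. This isoform had 202, 136 and 126 counts under the SGC-CLK-1 label and 119, 196 and 122 under the DMSO label, for a log2 fold change of 0.040 (SE 0.20). The retained-intron transcript RAD21-210 had 24, 13 and 9 counts against 16, 27 and 17, and scaled to depth its groups did not overlap, with 32.0 CPM ± 6.81 (SD, n = 3) against 45.2 ± 6.58. Its log2 fold change of -0.47 (SE 0.32) did not pass the test (adjusted p = 0.47 in edgeR), and became -0.31 without SGC-CLK-1 replicate 3. SMC3-201 (ENST00000361804, chr10:110567695-110606048, 29 exons) held 95.04% of the SMC3 counts and followed the gene sum, with a log2 fold change of -0.50 (SE 0.23, unadjusted p = 0.033, adjusted p = 0.24 in edgeR). This value became -0.31 without DMSO replicate 3.

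Several isoforms of other members could not be separated. All bases of SMC1A-201 and 97.8% of those of SMC1A-202 are shared. Their counts were 43, 29 and 34 against 44, 27 and 32 under the SGC-CLK-1 label, and 30, 25 and 22 against 31, 25 and 20 under the DMSO label, a difference of at most 2 in any library. NIPBL-202 and NIPBL-209 share 97.6% and 99.6% of their bases with NIPBL-201 and differed from it by at most 6 counts in a library, with totals of 140, 140 and 150. The log2 fold changes were -0.33 for NIPBL-201, -0.41 for NIPBL-202 and -0.29 for NIPBL-209 (SE 0.29 each), and NIPBL-201 became -0.13 without SGC-CLK-1 replicate 2. Whether the same reads were counted on each of these isoforms was not tested, and a gene sum would count such a read once per isoform. CTCF counts were spread widest, with all 17 annotated transcripts listed and the most counted, CTCF-205, at 34 counts or 13.1% of the gene. STAG2-201 held 17.6% and STAG1-202 21.1% of their genes' counts, and no transcript of CTCF, STAG1, STAG2 or WAPL had enough counts for the test.

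STAG1 and STAG2 each carry a cassette exon of 111 bases near the 3′ end of the transcript. It is exon 31 of 34 in STAG1-202 (chr3:136341441-136341551, minus strand) and exon 32 of 35 in STAG2-203 (chrX:124090854-124090964, plus strand). With 37 codons it keeps the reading frame whether it is included or skipped. The pair of exons was picked for description after the values were seen. They are printed 5′ to 3′ on the coding strand, and capitals mark the 59 of 111 positions that differ when the exons are laid side by side without gaps.
STAG1 exon 31: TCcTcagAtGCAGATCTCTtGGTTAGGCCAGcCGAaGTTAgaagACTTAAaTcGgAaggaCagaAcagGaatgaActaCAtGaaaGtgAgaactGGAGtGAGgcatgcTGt
STAG2 exon 32: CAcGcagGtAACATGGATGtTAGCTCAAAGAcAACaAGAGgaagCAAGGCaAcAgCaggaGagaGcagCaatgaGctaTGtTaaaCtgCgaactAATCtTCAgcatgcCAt
The exons had the same base at 46.8% of positions. In STAG2, transcripts that include the exon had 27, 12 and 28 counts under the SGC-CLK-1 label and 10, 15 and 8 under the DMSO label, and transcripts that skip it had 38, 15 and 41 against 17, 26 and 16. Inclusion was thus 42.2% ± 2.01 (SD, n = 3) against 35.7% ± 2.02, without overlap. The means differed by 6.54 percentage points, which is a description with no test, since the exon was picked with these values in view. In STAG1, inclusion was 78.0% ± 7.86 (SD, n = 3) against 70.6% ± 10.997, which overlapped, with 6 to 28 informative counts per library. The difference of 7.36 percentage points became 3.50 without SGC-CLK-1 replicate 2 and 13.7 without DMSO replicate 3. A read that does not cover the exon can be counted on both kinds of transcript, which would draw the shares of a gene together. The counts came from 2 including and 4 skipping transcripts of STAG2, and from 4 including and 1 skipping transcript of STAG1. The printed levels can depend on these numbers of transcripts and may not measure exon inclusion. How far the levels follow them was not tested.

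**Figure D4:**
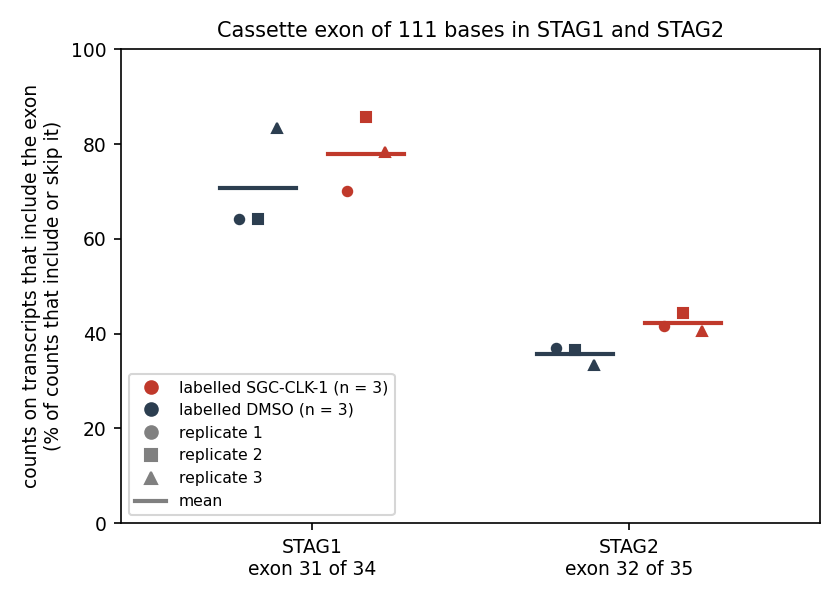
Counts on transcripts that include the cassette exon, as percent of the counts on transcripts that include or skip it, in each library. Horizontal lines are means of 3 libraries. For STAG2 the libraries labelled SGC-CLK-1 lie at 40.6 to 44.4% and those labelled DMSO at 33.3 to 37.0%, and for STAG1 the groups overlap.

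CLK inhibition acts on splicing, so the share of each gene's counts on isoforms not annotated as protein coding was compared for the 7 members with at least 20 counts in every library. The share was 34.6% ± 6.60 (SD, n = 3) under the SGC-CLK-1 label and 43.3% ± 8.78 under the DMSO label for PDS5A, 30.4% ± 8.47 against 37.98% ± 1.65 for PDS5B, and 13.7% ± 2.49 against 17.6% ± 2.28 for RAD21. It was 20.7% ± 10.99 (SD, n = 3) against 16.6% ± 1.88 for STAG2, 17.7% ± 6.24 against 17.4% ± 3.68 for NIPBL, 4.10% ± 2.20 against 4.80% ± 3.20 for SMC3 and 1.61% ± 1.67 against 3.12% ± 0.762 for SMC1A. None of the differences passed (exact two-sided permutation tests, p from 0.2 to 1, and at least 0.525 after adjustment over 7 members), in a design whose smallest p is 0.1, and the RAD21 difference of -3.85 percentage points was larger than the SD of either group. Counted by class, 9 shares of single classes were compared, and the groups did not overlap for RAD21 retained-intron isoforms, at 12.7% ± 1.50 (SD, n = 3) against 16.1% ± 1.57, nor for PDS5B isoforms marked for nonsense-mediated decay, at the shares given above. For both the exact two-sided permutation test gave p = 0.1, the smallest possible, without adjustment over the 9. How often such shares separate over all genes was not computed, so both are given as description only. STAG1, CTCF and WAPL had fewer counts in some libraries and were not tested, with means of 34.3, 23.0 and 28.9% under the SGC-CLK-1 label and 33.2, 34.1 and 36.9% under the DMSO label.

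Genes that work around these 10 were described from lists of related complexes. Of 14 genes for loading, acetylation, protection and release of cohesin, 12 were tested and 1 passed the gene test. PTTG1, which encodes securin, the inhibitor of the protease that cuts RAD21, fell by 1.59 on the log2 scale (SE 0.28, adjusted p = 0.035 in edgeR). It had 65, 21 and 47 counts under the SGC-CLK-1 label and 126, 115 and 107 under the DMSO label, without overlap. Of all genes tested, 0.126% passed in that direction. The call was lost without SGC-CLK-1 replicate 1 (adjusted p = 0.097), replicate 2 (0.24) or replicate 3 (0.060), and without DMSO replicate 1 (0.12) or replicate 3 (0.079), and with protein-coding transcripts only (0.053), and the estimate stayed between -1.83 and -1.36. PTTG1 has similar copies in the genome, to which reads could be assigned, and this was not tested.

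The median log2 fold change of this list was -0.34. This list and those below were drawn up with earlier results of these data known, so counts from them are description only. At an unadjusted p under 0.05, 5 genes of this list were lower and none higher, where 6.97% of all genes were lower. Besides PTTG1 they were PLK1, a mitotic kinase that promotes removal of cohesin from chromosome arms, HDAC8, which deacetylates SMC3, and SGO1 and SGO2, which protect cohesin at centromeres. PLK1 had 121, 44 and 30 counts against 126, 166 and 106 and a log2 fold change of -1.28 (SE 0.27, adjusted p = 0.054 in edgeR). PLK1 passed with DESeq2 (0.0027), no filter on low counts (0.0012), at least 10 counts in every library (0.032), the replicate number as a block (0.038) and the most abundant transcript only (0.0084), but in none of the 6 fits that left out 1 library (0.078 to 0.24), nor with library totals only (0.063) or protein-coding transcripts only (0.074). HDAC8, SGO1 and SGO2, named after their values were seen, had log2 fold changes of -1.05, -0.94 and -0.93 with adjusted p of 0.13, 0.13 and 0.17 in edgeR. ESCO1 and ESCO2, the SMC3 acetyltransferases, had log2 fold changes of 0.38 and 0.091 that did not pass (ESCO1 adjusted p = 0.73 in edgeR), with ESCO1 separated between labels as CPM but not after TMM scaling, and MAU2, the partner of NIPBL, and HASPIN were too rare to test. These 4 are named for their roles, also after their values were seen.

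Of 8 condensin genes, all were tested and none passed, with 1 higher and 2 lower at an unadjusted p under 0.05 (6.89% and 6.97% of all genes) and a median log2 fold change of -0.23. The higher one was NCAPG2, a condensin II subunit, with a log2 fold change of 0.81, and SMC2, the ATPase partner of SMC4, had -0.68 (both named after their values were seen). SMC4, a core condensin ATPase, had 678, 310 and 444 counts under the SGC-CLK-1 label and 629, 978 and 811 under the DMSO label, without overlap once scaled, and a log2 fold change of -0.94 (SE 0.20, adjusted p = 0.054 in edgeR). It passed with DESeq2 (0.0013), no filter on low counts (0.0031), at least 10 counts in every library (0.035), the replicate number as a block (0.037) and the most abundant transcript only (0.016), but in none of the 6 fits that left out 1 library (0.080 to 0.25), nor with library totals only (0.063) or protein-coding transcripts only (0.053). Of 10 factors found with CTCF at loop anchors and insulators, all were tested and none passed, with 2 lower at an unadjusted p under 0.05, where 6.97% of all genes were lower, and the median log2 fold change was 0.079 with 7 of 10 estimated higher. The lower genes were UBTF, with a log2 fold change of -1.08 (SE 0.27, adjusted p = 0.090 in edgeR), and NPM1, with -0.70 (SE 0.18, adjusted p = 0.098 in edgeR), the latter a gene with many processed pseudogenes to which reads could be assigned. NPM1 passed in 2 of 14 alternatives, DESeq2 (0.0085) and the most abundant transcript only (0.033), and in no fit that left out 1 library (0.14 to 0.32). The SMC5/6 complex had 6 of 9 genes tested and none under an unadjusted p of 0.05, with a median log2 fold change of 0.036. The germline paralogs SMC1B, STAG3, RAD21L1, REC8 and CTCFL all had counts, and of these STAG3 and CTCFL were tested, with log2 fold changes of 0.57 and -0.15 that did not pass (STAG3 adjusted p = 0.63 in edgeR). STAG3 was separated between labels as CPM but not after TMM scaling.

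**Figure D5:**
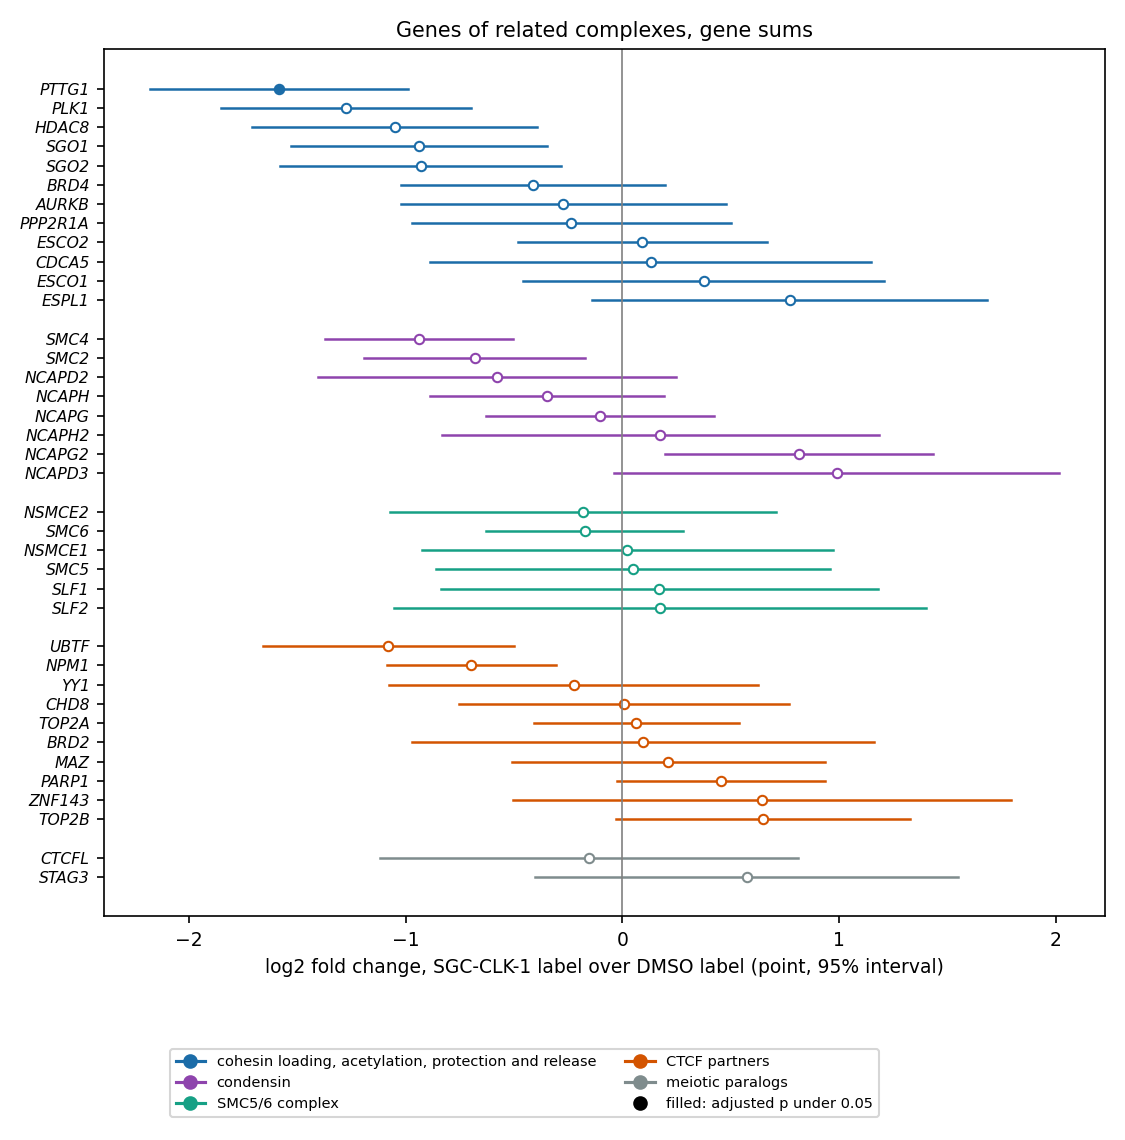
Log2 fold change of the SGC-CLK-1 label over the DMSO label for the tested genes of 5 related lists. Points are estimates with approximate 95% intervals computed from the edgeR test, filled where the adjusted p was under 0.05. PTTG1, at -1.59, is the filled point, and PLK1 (-1.28) and SMC4 (-0.94) lie nearest to the threshold.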

How the data were processed

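The values were the UMI counts per transcript that the authors deposited for each library, made from nanopore reads aligned with minimap2 (its version differs between the study's methods and the submitters' processing notes) to human transcripts (Ensembl release 98, GRCh38) with up to 3 secondary alignments kept at 0.9 or more of the best score. Which of the study's deduplication methods made the values is not stated, and featureCounts 2.0.1 and UMI-tools are named in the submitters' processing notes. Identifiers were matched without version to GENCODE 44 (86362 of 93530), covering 92.5 to 93.4% of the counts in each library. Unmatched transcripts stayed in the library totals and the transcript test and out of the gene sums.

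Gene sums, transcripts and transcript usage were tested with edgeR 4.0.16 in R 4.3.3 (TMM scaling, filterByExpr with a minimum count of 10, quasi-likelihood fit, Benjamini-Hochberg adjustment over all features tested), with DESeq2 1.42.0 as an alternative. Scripts were tested on simulated data. Ratios used counts plus 0.5, and ratios, shares and CPM were compared with exact permutation tests (scipy 1.17.1). Named were all 10 members, the most abundant transcript of each, called transcripts, the 10 with the smallest unadjusted p, and, of the related lists, genes past an adjusted p of 0.05 and the 5 with the smallest unadjusted p. PDS5B-203 and NIPBL-209, outside this rule, were added after their values were seen, as the remaining tested isoforms of their genes. The members and lists were chosen with earlier results of these data known. Sequences were read from GRCh38.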

Additional observations from a re-analysis of the deposited data

How the results depend on the processing

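Counts of 2 to 260 per library and gene limit what could be detected, and the gene test was sensitive to its settings. The count of all genes past an adjusted p of 0.05 was 15, and became 28 with scaling by library totals only, 169 with no filter on low counts, 64 with at least 10 counts in every library, 36 with the replicate block, 112 with DESeq2, 0 with protein-coding transcripts only (edgeR, 724 genes at an unadjusted p under 0.05), 147 with the most abundant transcript of each gene only, and 1 to 21 with 1 library left out. The count of members was 0, and 1 (PDS5A) with no filter, with at least 10 counts, with DESeq2 and with the most abundant transcript. For transcripts the count of 310 became 162 with no filter, 173 with at least 10 counts, 98 with DESeq2 and 81 to 363 with 1 library left out, and the members' 2 became 0, 1, 0 and 0 to 2. The 1 with at least 10 counts was PDS5A-207 (adjusted p = 0.046), which had not passed, while PDS5A-201 and PDS5A-202 were left out by that filter. Genes with changed usage numbered 5, then 2, 1 and 1 to 5 with no filter, at least 10 counts and 1 library left out. Same-numbered libraries correlated at 0.064, 0.024 and 0.031 in their deviations from the group means. SGC-CLK-1 replicates 1 and 2 correlated best with the DMSO library of their own number, and replicate 3 with DMSO replicate 2 (0.036). Whether the numbers pair the libraries cannot be decided from correlations this small. With the replicate block 427 transcripts passed, and no call on a member changed (PDS5A gene adjusted p = 0.071). PTTG1 kept its call under the block, where PLK1 and SMC4 passed at 0.038 and 0.037. Directions that turned belonged to values that had not passed a test. RAD21 became 0.011 with its most abundant transcript only, and RAD21-201 became -0.0048 with no filter and -0.049 to 0.15 with 1 library left out. Leaving out 1 library gave -0.029 to 0.68 for the difference in log2 ratio of STAG2 to STAG1, and, for non-coding shares in percentage points, -1.86 to 1.15 for SMC3, -1.95 to 8.87 for STAG2, -2.66 to 3.55 for NIPBL, -13.6 to -5.31 for PDS5A, -11.9 to -3.40 for PDS5B, -5.14 to -2.55 for RAD21 and -2.37 to -0.70 for SMC1A. The share became -1.01 for STAG2 with nonsense-mediated decay isoforms only and 0.0096 for PDS5B with retained introns only, against -7.62 with nonsense-mediated decay isoforms only, and was -3.40 for RAD21 with retained introns only. Inclusion of the STAG2 exon differed by 5.38 to 7.34 percentage points. The alternatives for related genes and for the exons were chosen after seeing the data. The causes were not tested.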
